A study of Mus musculus with 2 samples.

Results

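The protein genes of the cytosolic ribosome were described in whole mouse lung for 1 knockout (KO) and 1 control library. They were taken as all gene symbols in both tables that begin with Rpl, Rps or Rplp and a number, without the Rps6k kinases, together with Rpsa and Gm9846, a copy of Rps27. This gave 87 members of 22072 gene symbols, with 99 of 28107 transcript records. The KO lungs carried Pdgfb-iCreER / FoxF1 fl/fl, and the control lungs carried Foxf1 fl/fl with no Cre. Both were of the C57/BL6 background strain, and each library was made from lung RNA pooled over several mice of that genotype. Pdgfb-iCreER is a Cre recombinase that tamoxifen activates and that the Pdgfb promoter drives in endothelial cells, so the deletion was aimed at 1 cell compartment of a whole organ. Effects of Cre itself cannot be told apart from those of the deletion. The sources used here do not give the age, sex or number of the mice or the tamoxifen schedule.

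A ribosome joins a small (40S) subunit, which reads the mRNA, to a large (60S) subunit, which forms the peptide bond. Most of their proteins are present in a single copy per ribosome, and their mRNAs are among the most abundant of most cells. Many of these mRNAs begin with a run of pyrimidines, the 5′ terminal oligopyrimidine (TOP) motif, through which mTOR signalling controls their translation. Their spliced mRNAs have also been copied back into the genome many times as processed pseudogenes, and a few gave rise to expressed paralogues. A short read from such a sequence can match several genes.

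Of the 87 members, 31 are proteins of the 40S subunit and 46 of the 60S subunit. The others are 7 paralogues (Rpl3l, Rpl7l1, Rpl10l, Rpl22l1, Rpl36al, Rpl39l and Rps27l), Gm9846, the pseudogene symbol Rps4y2 and Rps19bp1. Rps19bp1 meets the naming rule but encodes a protein that binds RPS19 and is no ribosomal protein. Among the 40S and 60S members, Rpl10, Rpl36a, Rpl39 and Rps4x lie on the X chromosome.

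The sequences of 4 genes show where reads can and cannot be told apart. In RefSeq GRCm38.p6, Gm9846 is named Rps27rt, a protein-coding retrocopy of Rps27 on chromosome 9. Its coding sequence differs from that of Rps27 at 0 of 252 positions. Rps27l, on chromosome 9 (66793925 to 66797316, mm9), is a paralogue whose protein matches that of Rps27 (chromosome 3, 90016589 to 90017570, mm9) at 81 of 84 residues (96.4%), but 60 of the 252 coding bases differ. The coding sequences of the GENCODE transcripts (GRCm38) are given 5′ to 3′, with the bases that differ between Rps27 and Rps27l in capitals.
Rps27: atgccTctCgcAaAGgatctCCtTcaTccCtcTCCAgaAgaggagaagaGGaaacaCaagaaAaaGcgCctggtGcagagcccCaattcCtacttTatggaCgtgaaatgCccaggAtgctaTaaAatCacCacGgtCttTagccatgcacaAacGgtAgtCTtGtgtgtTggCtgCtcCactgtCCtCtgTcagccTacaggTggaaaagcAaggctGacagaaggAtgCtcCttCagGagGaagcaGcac
Rps27l: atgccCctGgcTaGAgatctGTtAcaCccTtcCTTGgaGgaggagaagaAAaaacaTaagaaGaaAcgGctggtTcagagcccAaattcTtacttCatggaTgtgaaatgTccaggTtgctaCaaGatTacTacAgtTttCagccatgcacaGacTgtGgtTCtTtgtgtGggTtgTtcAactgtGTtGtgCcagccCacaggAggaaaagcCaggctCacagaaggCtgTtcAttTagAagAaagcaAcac
The longest stretch without a difference between these sequences is 11 bases. A similar pair is Rpl36a (chromosome X, 131120193 to 131122601, mm9) and Rpl36al (chromosome 12, 70283721 to 70285054, mm9). Both encode the same 106 residues (100% identity), with 39 of 318 coding bases different and a longest common stretch of 24 bases. The first 150 coding bases of each hold 23 of these differences, in capitals.
Rpl36a: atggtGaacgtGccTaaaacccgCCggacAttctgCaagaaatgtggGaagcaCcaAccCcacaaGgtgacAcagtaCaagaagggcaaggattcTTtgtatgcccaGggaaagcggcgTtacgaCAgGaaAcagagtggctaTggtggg
Rpl36al: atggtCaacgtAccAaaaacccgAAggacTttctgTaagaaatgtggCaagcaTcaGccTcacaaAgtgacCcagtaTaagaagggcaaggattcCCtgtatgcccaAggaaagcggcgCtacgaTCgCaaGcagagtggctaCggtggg
Neither paralogue shares a stretch of 50 bases with its parent, whereas Gm9846 holds 98.6% of the 50-base stretches of Rps27. Genes other than the parent do hold such stretches, 63.3% of those of Rpl36al and 22.4% of those of Rps27l.

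The starts of transcription show another sequence feature, found in a part of the family. In RefSeq promoters (GRCm38.p6), 15 bases on either side of the annotated start are given for 5 members, and capitals mark the longest run of C or T that begins with C within 10 bases of the start.
Rps27: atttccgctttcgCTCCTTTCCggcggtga
Gm9846: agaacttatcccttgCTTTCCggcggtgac
Rpl15: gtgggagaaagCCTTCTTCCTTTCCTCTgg
Rpl22l1: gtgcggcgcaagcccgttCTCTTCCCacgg
Rps27l: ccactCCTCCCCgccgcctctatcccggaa
The windows lie at chr3:90213634-90213663 (minus strand) for Rps27, chr9:114982725-114982754 (minus strand) for Gm9846, chr14:18270972-18271001 (minus strand) for Rpl15, chr3:28805493-28805522 (plus strand) for Rpl22l1 and chr9:66946071-66946100 (plus strand) for Rps27l. The run has 9 bases in Rps27, 6 in Gm9846, 17 in Rpl15, 8 in Rpl22l1 and 7 in Rps27l. That of Rps27l ends upstream of the annotated start. Rpl41, for which no bases are given, has a run of only 3. Of the 57 40S and 60S members with a promoter in the table, 34 (59.6%) had such a run of at least 5 bases on the sense strand, against 34.4% of all 27025 genes. Runs of at least 8 bases were found in 23 of the 57 members (40.4%) and in 9.43% of all genes. A run in this window is a description of its letters, not evidence of a working TOP motif.

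The libraries held about 10.4 M reads on transcripts in KO lungs and 13.2 M in control lungs, as estimated from the coverage column. With 1 library a group there is no replicate check and no test. The intervals given are 95% exact conditional (Clopper-Pearson) counting intervals of the ratio. They cover counting error only, and not differences between mice, pools or library preparations. Error from how reads that match several genes were divided between records is not covered either. Foxf1, listed as Foxf1a, had 15.7 FPKM in KO lungs and 72.1 FPKM in control lungs, a ratio of 0.218 (0.187 to 0.252). FPKM counts fragments after division by record length and library size. Lung markers were abundant in both libraries, with Sftpc, the surfactant protein of alveolar type 2 cells, at 13793 FPKM in KO lungs and 15925 FPKM in control lungs.

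The ribosomal protein genes differed little between the pools. Counted with their copies, the 77 40S and 60S genes had a median of −0.07 on the log2(FPKM + 1) scale, KO minus control, or 0.9498-fold on that scale, and 75 of them had an FPKM ratio between 0.8 and 1.25. The median of the 40S genes was −0.10 and that of the 60S genes −0.04, against 0.05 for all 12929 genes with a mean of at least 1 FPKM. The 4 paralogues over this floor lay the other way, with a median of 0.27. The 1 very large difference under single symbols, at Rps27 and Gm9846, was not seen in the sum of these symbols.

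At 6 loci, a member shares its position in the tables with a record under the symbol of a copy. Per the tables (mm9), the copy's record lies at the parent gene, on the same chromosome and over nearly the same span, while RefSeq GRCm38.p6 annotates that symbol on another chromosome. The 5 pairs described here are Rps27 with Gm9846, Rpl26 with Gm15772, Rpl30 with Gm12191, Rpl34 with Rpl34-ps1 and Rps23 with Gm15450. The aligned bases of these pairs are 99.4% to 100% identical. Reads from identical stretches match both records, so the sums are given with the single values beside them.

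Rps27 encodes a zinc-finger protein of the 40S subunit. Its mRNA record of 346 bases had 1.03 FPKM in KO lungs and 662 FPKM in control lungs, and its non-coding record of 575 bases had 2.12 FPKM in KO lungs and 2.38 FPKM in control lungs. Gm9846, with a record of 345 bases at chromosome 3, 90016589 to 90017569 (mm9), had 518 FPKM in KO lungs and 0.0103 FPKM in control lungs. The symbols thus carried the locus in opposite libraries, Gm9846 in KO lungs and Rps27 in control lungs. The Gm9846 record has the status LOWDATA in both libraries, a status that the files do not define, while both Rps27 records are OK. Their sum was 521 FPKM in KO lungs and 665 FPKM in control lungs, a ratio of 0.784 (0.744 to 0.826). That was the lowest ratio of the 77 40S and 60S genes.

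**Figure D1:**
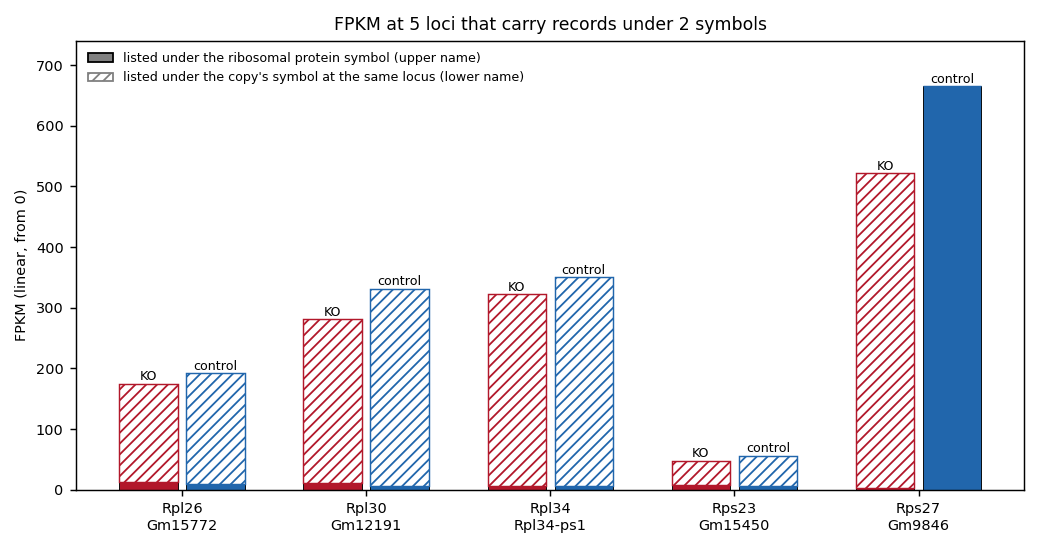
FPKM (linear axis from 0) at 5 loci with records under 2 symbols, KO left and control right at each locus. Filled bars are the ribosomal protein symbol and hatched bars the copy's symbol. At Rps27 the KO bar is hatched (518 FPKM under Gm9846) and the control bar filled (665 FPKM under Rps27), and at the other 4 loci both bars are mostly hatched.

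At the other 4 loci described the copy's symbol held most of the FPKM in both libraries. The share under the ribosomal protein symbol was 7.62% in KO lungs and 4.65% in control lungs for Rpl26. It was 3.66% in KO lungs and 1.97% in control lungs for Rpl30, and 1.73% in KO lungs and 1.89% in control lungs for Rpl34. For Rps23 it was 15.7% in KO lungs and 12.2% in control lungs. The symbol alone would place these core ribosomal protein genes near the bottom of the family.

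Rpl30, a small protein of the 60S subunit, had 10.3 FPKM in KO lungs and 6.53 FPKM in control lungs under its own symbol. That is 1.495-fold on the log2(FPKM + 1) scale, the value nearest below the 1.5-fold line. The difference lay mostly in the minor record of 519 bases, at 3.29 FPKM in KO lungs and near 0 in control lungs. The main record of 575 bases had 6.97 FPKM in KO lungs and 6.53 FPKM in control lungs (1.07, 0.717 to 1.56), an interval that included 1. With Gm12191 it had 281 FPKM in KO lungs and 331 FPKM in control lungs, a ratio of 0.847 (0.796 to 0.8997), so the sum lay on the other side of 1 from the symbol. Rpl26, which lies near the exit of the peptide tunnel, also turned round. It had 13.3 FPKM in KO lungs and 8.93 FPKM in control lungs alone (1.49, 1.09 to 2.03), and 174 FPKM in KO lungs and 192 FPKM in control lungs with Gm15772 (0.907, 0.840 to 0.978). Rps23, a protein of the decoding centre, had 7.52 FPKM in KO lungs and 6.83 FPKM in control lungs alone (1.10, 0.749 to 1.62), and 48.0 FPKM in KO lungs and 56.0 FPKM in control lungs with Gm15450 (0.857, 0.738 to 0.989). The symbol of Rps23 alone thus did not differ beyond counting error. Rpl34 had 5.57 FPKM in KO lungs and 6.63 FPKM in control lungs alone (0.841, 0.551 to 1.25), and 322 FPKM in KO lungs and 350 FPKM in control lungs with Rpl34-ps1 (0.920, 0.864 to 0.979). All 5 sums were lower in KO lungs, with intervals below 1.

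**Figure D2:**
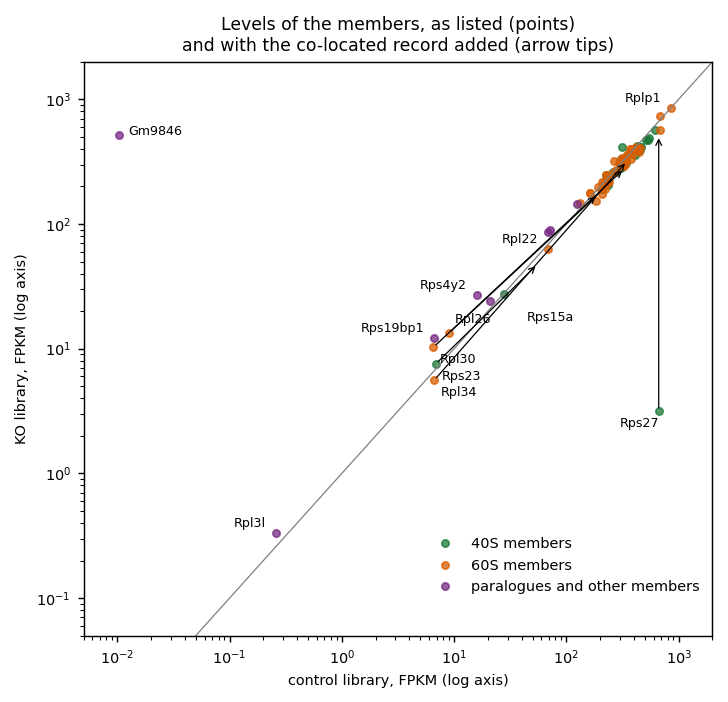
FPKM in KO lungs (vertical, log axis) against control lungs (horizontal, log axis) for 83 of the 87 members as listed, with arrows from 5 members with a co-located copy record to the sum of both. Members listed at 0 in control lungs (Rpl39l and Rpl10l) are not drawn. The arrows end in the cluster of ribosomal protein genes, except that of Rps23, which ends at 48.0 FPKM in KO lungs and 56.0 FPKM in control lungs, and the grey line marks equal values.

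As listed, 83 of the 87 members passed the floor. Of the 4 that did not, 3 were the paralogues Rpl3l, Rpl10l and Rpl39l. Among those 83, 3 symbols were at least 1.5-fold higher in KO lungs on the log2(FPKM + 1) scale (Gm9846, Rps4y2 and Rps19bp1), where 9.41% of all genes were, and 1 was at least 1.5-fold lower (Rps27), where 4.63% of all genes were. With the co-located records summed, 2 were higher (Rps4y2 and Rps19bp1) and 0 lower. None of the 77 40S and 60S genes was then past 1.5-fold in either direction.

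Of the 77 summed 40S and 60S genes, 54 lay below 0 on the log2 scale, against 43.2% of all genes over the floor. This split was 25 of 31 for the 40S genes and 29 of 46 for the 60S genes. The counting interval lay wholly below 1 for 38 of the 77, where 21.9% of all genes did, and wholly above 1 for 13, where 33.3% of all genes did. For 26 genes it included 1. The median of the family also lay below those of other abundant genes and of other genes with short records. Other genes with a mean of at least 100 FPKM had a median of 0.18 (441 genes), and so had other genes whose records are shorter than 1000 bases (1029 genes). Leaving out the 6 genes with co-located records, 48 of 71 lay below 0, with a median of −0.06. In bulk RNA, fewer cells of a type and less RNA per cell cannot be told apart.

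**Figure D3:**
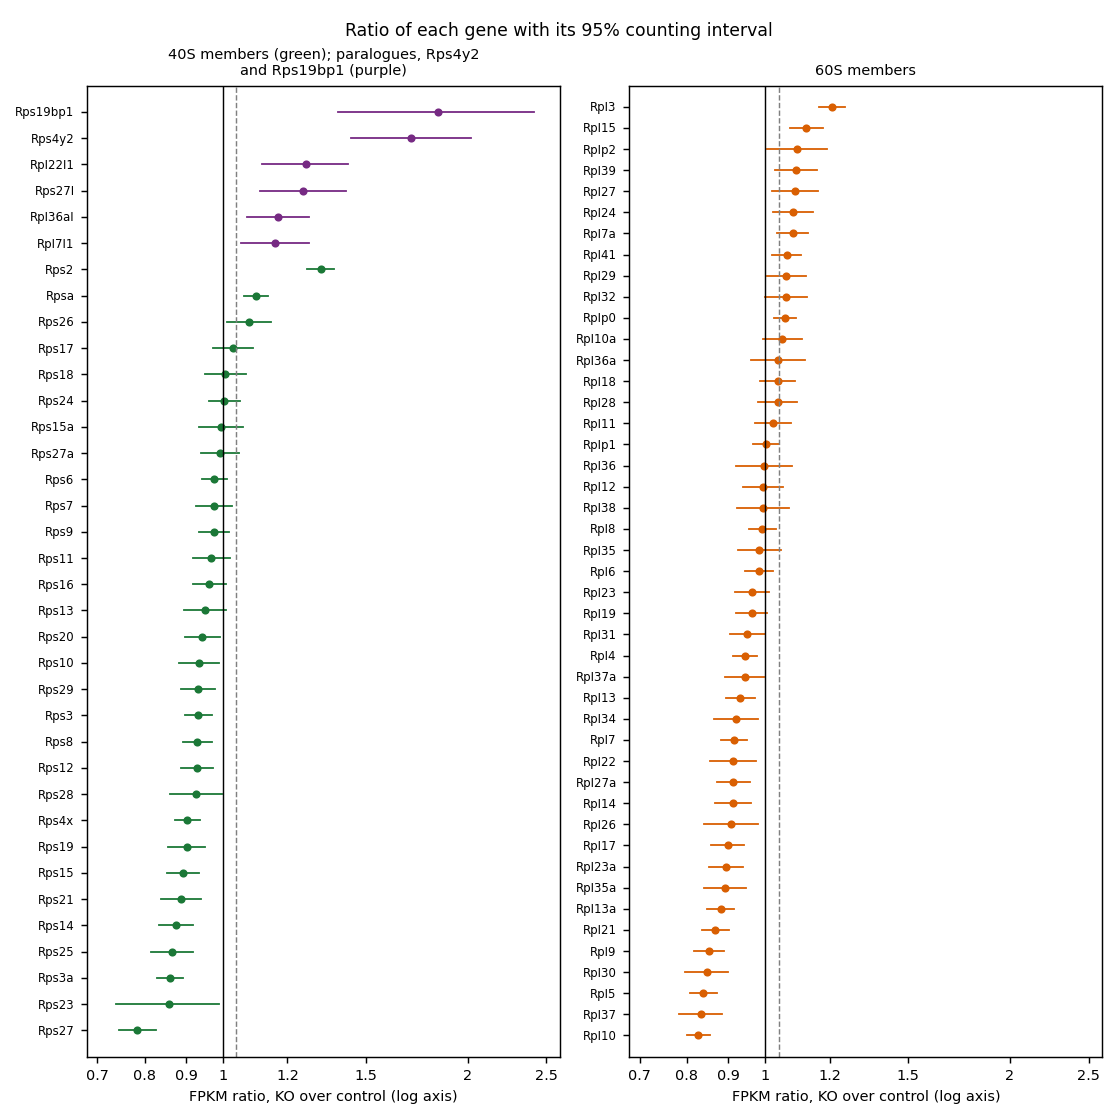
FPKM ratio, KO over control (log axis), of 81 of the 83 members over the floor after co-located records were summed. Points are ratios and lines 95% counting intervals, the solid vertical line marks 1 and the dashed line the median of all genes on the log2(FPKM + 1) scale. Most 40S and 60S genes sit between 0.8 and 1.1, while the paralogues, Rps4y2 and Rps19bp1 sit above 1.1.

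In the 40S subunit, Rps2, which lies at the mRNA entry channel, was the highest. It had 416 FPKM in KO lungs and 315 FPKM in control lungs (1.32, 1.27 to 1.37) and was the only one of the 77 genes above 1.25. Rpsa, also known as the laminin receptor, followed with 249 FPKM in KO lungs and 226 FPKM in control lungs (1.098, 1.06 to 1.14). Rps26, at the mRNA exit channel, had 330 FPKM in KO lungs and 306 FPKM in control lungs (1.08, 1.01 to 1.14). These 3 were the only 40S genes with an interval above 1. After Rps27 and Rps23, the lowest were Rps3a, with 389 FPKM in KO lungs and 452 FPKM in control lungs (0.860, 0.829 to 0.893), and Rps25, with 204 FPKM in KO lungs and 236 FPKM in control lungs (0.865, 0.814 to 0.919). Rps25 is known for its part in initiation at internal ribosome entry sites. Rps19, which is mutated in human Diamond-Blackfan anaemia, had 306 FPKM in KO lungs and 340 FPKM in control lungs (0.902, 0.856 to 0.949). Rps6, the target of the S6 kinases, was close to the family median, with 311 FPKM in KO lungs and 318 FPKM in control lungs (0.975, 0.941 to 1.01).

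In the 60S subunit, Rpl3, a protein next to the peptidyl transferase centre, was the highest. It had 322 FPKM in KO lungs and 266 FPKM in control lungs (1.21, 1.16 to 1.25). Rpl15 came next, with 147 FPKM in KO lungs and 131 FPKM in control lungs (1.12, 1.07 to 1.18). The stalk proteins, which bind elongation factors, differed little. Rplp0 had 401 FPKM in KO lungs and 379 FPKM in control lungs (1.06, 1.02 to 1.09), Rplp1 had 848 FPKM in both libraries (1.001, 0.965 to 1.04), and Rplp2 had 176 FPKM in KO lungs and 161 FPKM in control lungs (1.09, 1.004 to 1.19). Among the lowest was Rpl10, which joins the 60S subunit last, with 568 FPKM in KO lungs and 686 FPKM in control lungs (0.827, 0.7998 to 0.855). Rpl37 had 153 FPKM in KO lungs and 184 FPKM in control lungs (0.832, 0.783 to 0.885). Rpl5 and Rpl11 form, with 5S rRNA, the particle that binds MDM2 when ribosome assembly is disturbed. They differed from each other, with Rpl5 at 173 FPKM in KO lungs and 206 FPKM in control lungs (0.839, 0.807 to 0.871) and Rpl11 at 364 FPKM in KO lungs and 356 FPKM in control lungs (1.02, 0.972 to 1.07).

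FPKM levels, which are per length, were of the same order for nearly all core genes. With co-located records summed, 74 of the 77 40S and 60S genes had at least 100 FPKM in both libraries, against 69 as listed. Rplp1 led with 848 FPKM in both libraries, followed by Rpl41, the shortest ribosomal protein, with 731 FPKM in KO lungs and 688 FPKM in control lungs (1.06, 1.02 to 1.11). Rps29 had 570 FPKM in KO lungs and 611 FPKM in control lungs, Rps4x 489 FPKM in KO lungs and 542 FPKM in control lungs, and Rps15 472 FPKM in KO lungs and 529 FPKM in control lungs. The 3 genes under 100 FPKM were Rps23, Rpl22 and Rps15a. Rps15a had 27.6 FPKM in KO lungs and 27.7 FPKM in control lungs, on a record of 5134 bases, and about 1808 reads in KO lungs and 2343 in control lungs. Its low FPKM thus goes with the longest record of the family. Together the members held 6.32% of the summed FPKM in KO lungs and 6.61% in control lungs, or 6.64% in KO lungs and 6.98% in control lungs with the co-located copies. Of aligned bases, which are not divided by length, they held 2.19% in KO lungs and 2.30% in control lungs.

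The expressed paralogues were higher in KO lungs, and 4 of 4 over the floor had intervals above 1, where 33.3% of all genes did. Rpl22l1, which can replace Rpl22 in the ribosome, had 86.4 FPKM in KO lungs and 68.4 FPKM in control lungs (1.26, 1.12 to 1.43). Rpl22 itself had 62.6 FPKM in KO lungs and 68.6 FPKM in control lungs (0.912, 0.856 to 0.972). Rpl22l1 therefore stood at 138% of Rpl22 in KO lungs and at 99.7% in control lungs. Rps27l, a p53 target, had 89.3 FPKM in KO lungs and 71.2 FPKM in control lungs (1.25, 1.11 to 1.42), which was 17.1% of the Rps27 and Gm9846 sum in KO lungs and 10.7% in control lungs. Rpl36al had 146 FPKM in KO lungs and 125 FPKM in control lungs (1.17, 1.07 to 1.28), and Rpl7l1 24.2 FPKM in KO lungs and 20.9 FPKM in control lungs (1.16, 1.05 to 1.27). Their parents were nearer to or below equality. Rpl36a had 198 FPKM in KO lungs and 191 FPKM in control lungs, and Rpl7 396 FPKM in KO lungs and 433 FPKM in control lungs. Of the 50-base stretches, 63.3% of those of Rpl36al and 57.3% of those of Rpl22l1 also lay in other genes. For Rps27l it was 22.4% and for Rpl7l1 9.03%. The part of this shared sequence in the ratios of the paralogues was not tested.

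The remaining paralogues are known from other tissues and were near the lower limit. Rpl3l, a muscle paralogue of Rpl3, had 0.330 FPKM in KO lungs and 0.257 FPKM in control lungs. Rpl39l, known from testis, had 0.553 FPKM in KO lungs and was listed at 0 in control lungs, and Rpl10l, also a testis gene, was listed at 0 in both libraries. The protein of Rpl10l is 98.6% identical to that of Rpl10, and the protein of Rpl39l 94.1% identical to that of Rpl39, yet their coding sequences differ at 98 of 642 and 23 of 153 bases. Summed with their parents as near-identical proteins, Rpl10 with Rpl10l had 568 FPKM in KO lungs and 686 FPKM in control lungs, and Rpl39 with Rpl39l had 402 FPKM in KO lungs and 369 FPKM in control lungs (1.09, 1.03 to 1.16). Rpl36a with Rpl36al had 344 FPKM in KO lungs and 316 FPKM in control lungs (1.09, 1.03 to 1.15), and Rps27, Gm9846 and Rps27l together had 611 FPKM in KO lungs and 736 FPKM in control lungs (0.830, 0.791 to 0.870).

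The 2 symbols that stayed past 1.5-fold are not ribosomal proteins of these subunits. Rps4y2, annotated by RefSeq as a transcribed pseudogene and now named Rps4l, had 27.0 FPKM in KO lungs and 15.9 FPKM in control lungs (1.70, 1.44 to 2.02). Its record of 941 bases lies within the span of Tmtc1, which had 10.2 FPKM in KO lungs and 17.2 FPKM in control lungs, and the part of this overlap in the difference was not tested. Rps19bp1 had 12.2 FPKM in KO lungs and 6.63 FPKM in control lungs (1.84, 1.39 to 2.42). Both lay on the other side of equality from the family median.

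Many members shared sequence with other genes. A stretch of 50 bases, about the size of a read here, was searched for in all other genes of the GENCODE transcripts. At least 50% of the stretches of a transcript also lay in another gene for 43 of the 87 members, and 4 members, among them Rps19bp1, Rpl3l and Rpl39l, had none. The same count over all genes was not computed, so these numbers cannot be called particular to the family. The other gene was not always a pseudogene, as with the protein-coding RPS10-NUDT3 for Rps10 (50.8%). The highest shares were 98.6% for Rps27, 93.3% for Rpl9 and 92.1% for Rpl10. These shares describe the GENCODE transcripts, some of which are much longer than the records. Examples are Rps20 (3706 against 502 bases) and Rpl12 (1242 against 638 bases). Shares over the bases of the records were not computed and can differ, and the comparisons that follow use the transcript shares. Among the 40S and 60S genes, the 40 with at least 50% shared had a median of 0.975-fold on the log2(FPKM + 1) scale and the 37 with less had 0.943-fold. Across these 77 genes, which share both libraries, the Spearman coefficient of the shared percentage with the log2 ratio was 0.07, and with the FPKM in control lungs 0.17. Both coefficients were small. Rps2, the highest 40S gene, had 79.0% of its stretches in 71 other genes, all of them pseudogenes, and the part of these copies in its ratio was not tested.

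**Figure D4:**
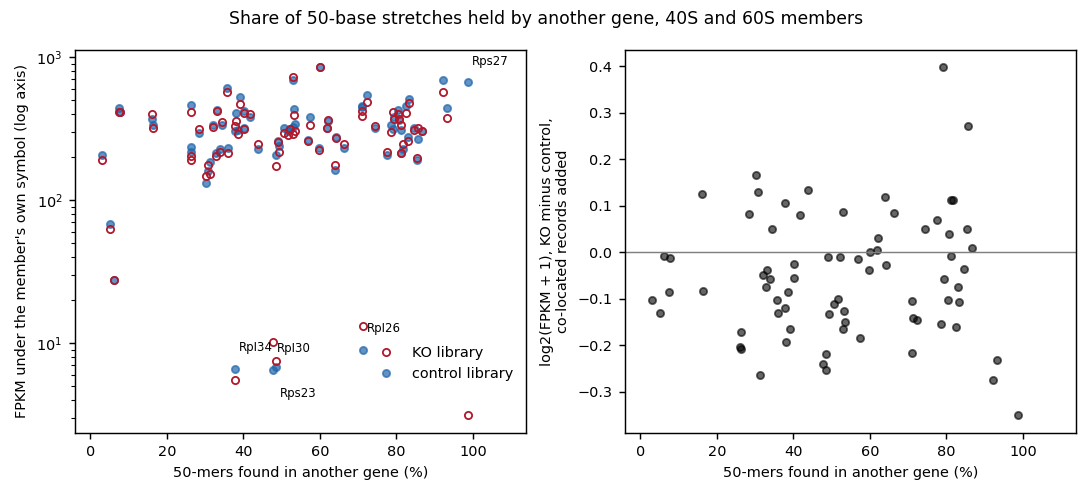
Share of the 50-base stretches of the GENCODE transcript found in another gene (horizontal, %) for 75 of the 77 40S and 60S genes. The left panel gives FPKM under the member's own symbol in KO lungs (open) and control lungs (filled) on a log axis, where 4 labelled genes with a co-located record lie at or under 13.3 FPKM in both libraries and Rps27 in KO lungs only, and the right panel gives the log2(FPKM + 1) difference, KO minus control, after summing.

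Records of 1 gene can be divided in the same way. Of the 99 records, 96 had the status OK in both libraries and 3 had LOWDATA in both, which were Gm9846, the Rpl34 record of 403 bases and the Rpl38 record of 285 bases. None had FAIL. In the whole tables, 294 records had LOWDATA in both libraries, and 228 of them were under 1 FPKM in both. The copy records Gm15772 and Gm15450 also had LOWDATA in both libraries, and Gm12191 and Rpl34-ps1 had OK. The Rpl38 record with LOWDATA had 211 FPKM in KO lungs and 209 FPKM in control lungs, about 67.1% of its gene in KO lungs and 66.2% in control lungs.

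Among the members, 78 had 1 record and 9 had several. Rps24, which is alternatively spliced near its 3′ end, had 3 records. They held 49.3% in KO lungs and 44.3% in control lungs for the record of 837 bases, 35.6% in KO lungs and 36.1% in control lungs for that of 857 bases, and 15.1% in KO lungs and 19.6% in control lungs for that of 875 bases. Their sum was nearly equal, at 320 FPKM in KO lungs and 319 FPKM in control lungs (1.004, 0.960 to 1.05). Of the 2 records of Rpl19, the one of 738 bases had 0.0003 FPKM in KO lungs and 7.15 FPKM in control lungs, and the one of 752 bases 367 FPKM in KO lungs and 375 FPKM in control lungs. The minor record of Rps27a, a ubiquitin fusion, had 4.25 FPKM in KO lungs and 6.98 FPKM in control lungs, beside 255 FPKM in both libraries for the main record.

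Other genes of translation were counted from lists written for this description. Of the 3 other cytosolic ribosome components over the floor, Gnb2l1 (RACK1) had 275 FPKM in both libraries. Fau, which yields RPS30, had 316 FPKM in KO lungs and 368 FPKM in control lungs (0.859, 0.814 to 0.905). The list of elongation factors also holds Tpt1 and Eef1e1, which are not elongation factors themselves. It had a median of −0.01 over 9 genes, with 1 at least 1.5-fold higher and 0 lower. The counting interval lay wholly above 1 for 3 of the 9, where 33.3% of all genes did. It lay wholly below 1 for 3, where 21.9% of all genes did. The 2 most abundant members and the lowest one were among those below 1. Eef1a1, which brings the aminoacyl-tRNA, had 1518 FPKM in KO lungs and 1703 FPKM in control lungs (0.892, 0.879 to 0.904). Eef2, the translocase, had 364 FPKM in KO lungs and 442 FPKM in control lungs (0.824, 0.807 to 0.841), and Tpt1 had 334 FPKM in KO lungs and 408 FPKM in control lungs (0.818, 0.785 to 0.852). All 3 are known TOP mRNAs. The ribosomal protein genes, many of which have this motif, lay on both sides, with 38 of 77 intervals wholly below 1 and 13 wholly above. The part of the motif in these ratios was not tested. Eef1e1, a part of the tRNA synthetase complex, was the 1 past 1.5-fold, with 9.58 FPKM in KO lungs and 5.90 FPKM in control lungs (1.62, 1.24 to 2.13).

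The genes that build ribosomes had a median on the other side of 0. The ribosome biogenesis factors had a median of 0.24, with 49 of 52 above 0, where 56.8% of all genes were. At least 1.5-fold higher were 4 of the 52, which is no larger a share than the 9.41% of all genes, and 0 were lower. Nop58, a core protein of box C/D small nucleolar particles, had 19.8 FPKM in KO lungs and 8.70 FPKM in control lungs (2.27, 1.96 to 2.64), and Npm1, nucleophosmin, 103 FPKM in KO lungs and 92.6 FPKM in control lungs (1.11, 1.04 to 1.18). Sbds, which readies the 60S subunit for joining, was the lowest, with 45.5 FPKM in KO lungs and 58.9 FPKM in control lungs (0.772, 0.708 to 0.841). The 34 initiation factors had a median of 0.18 and 1 gene past 1.5-fold, Eif2s1, with 18.6 FPKM in KO lungs and 11.8 FPKM in control lungs (1.57, 1.41 to 1.75). The paired helicases of initiation differed, Eif4a1 with 188 FPKM in KO lungs and 128 FPKM in control lungs (1.47, 1.41 to 1.54) and Eif4a2 with 126 FPKM in KO lungs and 158 FPKM in control lungs (0.794, 0.765 to 0.825).

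The 14 genes of RNA polymerase I and its factors, which make the rRNA precursor, had a median of 0.08 and 0 past 1.5-fold. The 76 mitochondrial ribosomal proteins had a median of 0.24, with 64 above 0, where 56.8% of all genes were. At least 1.5-fold higher were 5 of the 76, again no larger a share than the 9.41% of all genes, and 0 were lower. Mrpl52 had 73.5 FPKM in KO lungs and 46.8 FPKM in control lungs (1.57, 1.35 to 1.83). The regulators of mTOR, Myc and TOP mRNAs had a median of −0.01 over 19 genes. On the log2(FPKM + 1) scale, 0 were at least 1.5-fold higher, where 9.41% of all genes were, and 2 lower, where 4.63% were. The highest was Myc, at 1.499-fold on that scale. Myc had 4.01 FPKM in KO lungs and 2.34 FPKM in control lungs (1.71, 1.30 to 2.28), and Deptor, an mTOR inhibitor, 2.49 FPKM in KO lungs and 4.64 FPKM in control lungs (0.536, 0.418 to 0.683). The medians of the cytosolic and mitochondrial ribosomal protein genes thus lay on opposite sides of 0.

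**Figure D5:**
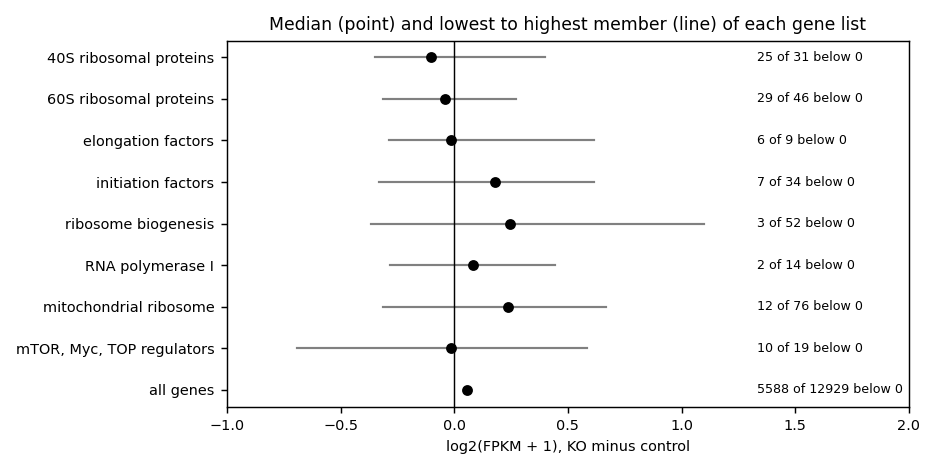
Median (point) and lowest to highest member (line) of log2(FPKM + 1), KO minus control, for genes over the floor in each list, with co-located records summed for the ribosomal proteins. The 40S (−0.10) and 60S (−0.04) medians lie below 0, and the initiation (0.18), ribosome biogenesis (0.24) and mitochondrial ribosome (0.24) medians above it. For all genes only the median is drawn.

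Marker genes of several compartments differed between the same libraries. Of all genes over the floor, 9.41% were at least 1.5-fold higher in KO lungs, 4.63% at least 1.5-fold lower and 43.2% below control. All 26 cell cycle genes were at least 1.5-fold higher in KO lungs, and their summed FPKM was 580 in KO lungs and 125 in control lungs. All 9 airway epithelial markers were below control, 6 of them past 1.5-fold, with a sum of 25534 FPKM in KO lungs and 40645 FPKM in control lungs. The 14 endothelial markers had a median of 0.07, with 4 higher and 4 lower past 1.5-fold and a sum of 1860 FPKM in KO lungs and 2160 FPKM in control lungs. No marker of these 3 lists was at 0 in both libraries. Their part in the ribosomal protein values was not tested.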

How the data were processed

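The authors deposited FPKM values and coverage (depth of aligned bases per transcript base) for each RefSeq record of 2 lung libraries, 1 a genotype, per the file headers. Per the submitters' processing notes, the build was mm9, and DESeq is named there without a role. The aligner, the quantification tool and the handling of reads that match several genes were not given in the sources used here. FPKM divides by the library total, so abundant transcripts can shift other values.

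Records were joined by identifier, symbol, position and length, and summed by symbol. Ratios are plain FPKM ratios. Medians and 1.5-fold counts use log2(FPKM + 1), which understates differences of low genes, over genes with a mean of at least 1 FPKM. Approximate reads are coverage times length divided by the bases per read, 47.5 in both libraries, the median of values from 35 to 65 over genes with few reads. Copies were summed where proteins were at least 90% identical, or where records overlapped at 1 locus, with at least 90% identity over at least 50% of the copy. Sequence comparisons used GENCODE M21 transcripts and RefSeq tables, with all 87 members matched. The counting and intervals were tested on simulated data, with an independent Poisson count for each gene and no reads shared between copies. That simulation cannot show how the intervals hold where reads match several genes or where pools differ. Members and lists were chosen with earlier results of these data known. Described in full were members past 1.5-fold, with another status than OK, with copies or paralogues, at the extremes of level or nearest to 1.5-fold or the median. From each list the highest, lowest and 2 most abundant genes were considered. Values of a few genes that count in the totals are not reported here. Other members were named by role after their values were seen. Python 3.11.15, pandas 2.3.3, SciPy 1.17.1 and Biopython 1.88 were used.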

Additional observations from a re-analysis of the deposited data

How the results depend on the processing

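The median log2 ratio of all listed members was −0.04 and stayed below 0 under all alternatives run, from −0.10 with upper quartile scaling to −0.03 with no floor. All 3 scalings multiplied the KO values by a factor below 1 (0.958, 0.958 and 0.989). Medians already below 0, such as those of the 40S and 60S genes, could thus only fall further. The median of the 4 paralogues stayed above 0 under all 3 scalings. The sign of 8 of 83 single members turned with median scaling, of 8 with upper quartile scaling and of 3 with equal summed FPKM of all other genes. The count of members at least 1.5-fold lower was 1, became 2 with no floor and 0 with near-identical copies or co-located records summed. The count higher was 3. Among its changes, it became 2 with co-located records summed and 1 without Rps4y2 and Rps19bp1. With no floor, Rpl39l, at 1.55-fold on the log2(FPKM + 1) scale, was also past the line. The alternatives with co-located records and without these genes were chosen after seeing the data. The members' share of FPKM was 6.52% in KO lungs and 6.79% in control lungs with the highest record of each symbol, 6.19% in KO lungs and 6.60% in control lungs with OK records only, and 2.19% in KO lungs and 2.30% in control lungs by aligned bases. Keeping OK records only removes copy records, and the log2 ratio became −2.99 for Gm9846, Rps27 and Rps27l, and −7.72 for Rps27 with Gm9846. It turned round to 0.14 for Gm15450 with Rps23 and 0.57 for Gm15772 with Rpl26. Rpl10 with Rpl10l had −0.34 under median and under upper quartile scaling. No paired analysis was possible because each genotype has 1 pooled library and the labels give no replicate numbers. Differences between mice cannot be seen at this design, whatever the depth.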

Other observations

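Kinases and stress genes tied to ribosomal proteins were measured beside the family. Of the 8 Rps6k genes over the floor, which encode kinases that phosphorylate RPS6 and other substrates, 1 was at least 1.5-fold higher and 1 lower in KO lungs. By the same measure, 9.41% of all genes were higher and 4.63% lower. Rps6ka3 had 18.7 FPKM in KO lungs and 10.97 FPKM in control lungs (1.71, 1.496 to 1.95), and Rps6ka1 had 13.0 FPKM in KO lungs and 23.1 FPKM in control lungs (0.564, 0.507 to 0.625). The 11 genes of the p53 and ribosome stress list had a median of 0.12 and 1 past 1.5-fold. Phlda3, a p53 target, had 46.7 FPKM in KO lungs and 24.2 FPKM in control lungs (1.93, 1.73 to 2.14). Cdkn1a, the p53 target that encodes p21, had 59.2 FPKM in KO lungs and 56.1 FPKM in control lungs (1.05, 0.983 to 1.13), and Mdm4 had 7.57 FPKM in KO lungs and 10.4 FPKM in control lungs (0.726, 0.634 to 0.831).

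The tables hold 3 ribosomal protein symbols with the ending -ps and a number over the floor, apart from pseudogenes listed under other names. Beside Rpl34-ps1, Rps19-ps3 had 23.6 FPKM in KO lungs and 24.1 FPKM in control lungs (0.977, 0.770 to 1.24), and Rplp2-ps1 had 4.07 FPKM in KO lungs and 2.14 FPKM in control lungs (1.90, 1.17 to 3.17). The marker list of alveolar type 2 cells had a median of −0.04 over 10 genes, that of lymphocytes −0.03 over 12 genes and that of erythroid cells −0.08 over 7 genes. The fibroblast and smooth muscle list had a median of 0.80 over 10 genes, 3 of them below 0, and a summed level of 1638 FPKM in KO lungs and 1727 FPKM in control lungs. Its most abundant member, Inmt, had 626 FPKM in KO lungs and 1189 FPKM in control lungs (0.527, 0.513 to 0.540), and Col3a1, the next, had 223 FPKM in KO lungs and 91.2 FPKM in control lungs (2.45, 2.38 to 2.51). The macrophage list had a median of 0.43 over 11 genes, 4 of them below 0. Its summed level was 4208 FPKM in KO lungs and 4201 FPKM in control lungs. Among the erythroid genes, Hba-a2 had 0.0162 FPKM in KO lungs and 23.8 FPKM in control lungs. Hba-a1, its near-identical neighbour, had 376 FPKM in KO lungs and 393 FPKM in control lungs (0.957, 0.910 to 1.01). The value of Hba-a2 alone is not read as a difference, and the division of reads between these genes was not tested.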
